A study of Mus musculus with 6 samples.

Results

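The laminin chain genes were described in RNA-seq data from mouse embryonic stem (ES) cells without a functional Morc3 gene and from their wild-type counterparts. The members are the gene rows with the symbols Lama1, Lama2, Lama3, Lama4, Lama5, Lamb1, Lamb2, Lamb3 and Lamc1, so 9 of 24054 gene rows. They were chosen by name, and the difference of Lama3 between the groups was known when they were chosen. All their values in the comparison of knock-out (ko) with wild-type cells are therefore a description, and no p-value is given for them.

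The study examined Morc3, an ATPase of the MORC family, as a factor that keeps endogenous retroviruses silent. The ko group held 3 libraries from the cell lines KO27-1, KO27-2 and KO27-3, called clone 1, clone 2 and clone 3 here. Per the methods of the study, each is a single clone that was derived from the line wt26 by cutting Morc3 with Cas9. The wild-type group held 3 libraries of wt26 itself, whose titles carry the names p42, p43 and p56, and the meaning of the letter p was not given. The labels list no further allele or agent for either group, and all cells grew without feeder cells on gelatin in medium with serum and LIF, the cytokine that maintains mouse ES cells. Total RNA depleted of ribosomal RNA was sequenced. The study calls the libraries biological replicates, with n = 3 for each condition. The labels do not say whether the cultures of the wild-type line were independent, so that the spread between libraries may be partly technical. The effect of Morc3 loss and of clonal derivation cannot be told apart in a group made only of clones. The study also put Morc3 back into KO27-2 and reported that expression was largely normalized in these rescue lines, which are not among the 6 libraries used here.

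Laminins are large secreted glycoproteins of basement membranes, the thin sheets of matrix on which epithelia, muscle and nerve sheaths rest. Each is a cross-shaped trimer of an α, a β and a γ chain, coded by Lama, Lamb and Lamc genes, and its name gives the numbers of the chains. The α chain carries the domains that bind integrins and dystroglycan at the cell surface, while the β and γ chains take part in joining trimers into a network. In the early mouse embryo the laminins with α1 and α5 chains are the prevailing forms, and mouse ES cells are known to secrete them. The α3 and β3 chains belong to the laminin of epidermal and other stratified epithelia, which anchors the basal cells through hemidesmosomes.

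Sense-strand gene counts amounted to 10740618 to 14123131 per library. Morc3 itself had 77.7, 138 and 134 CPM (counts after scaling by library size) in ko clones 1 to 3 and 277, 272 and 302 CPM in p42, p43 and p56. The log2 fold change (ko over wild type) was -1.28, with a standard error (SE) of 0.16 and a p of 8.4e-04 after adjustment in edgeR. Counts over the whole gene do not show the edited sequence. The ES cell identity was checked with 14 pluripotency genes, whose summed level was 6367 to 6471 CPM in the ko and 6117 to 6434 CPM in the wild-type libraries. All 14 were tested and 0 were called by edgeR, DESeq2 and limma-voom. In edgeR, 3 were at an unadjusted p under 0.05, beside 1746 of all 12222 tested genes. Their log2 fold changes ran from -0.12 to 0.24 with a median of 0.05. Of the 14, 11 were above 0, beside 6108 of all 12222 tested genes. Zfp42 had the highest CPM, 1462 ± 57.0 in ko clones and 1315 ± 36.4 in wild-type libraries. The wild-type p56 library stood apart from the other wild-type libraries. Its lowest levels relative to them among the members were in Lamb1, Lamb2 and Lama5, and values without it are given there.

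Lama3, which codes for the α3 chain, was the laminin chain with the largest difference between the groups. It was counted 253, 235 and 288 times in ko clones 1, 2 and 3 and 50, 50 and 45 times in wild-type p42, p43 and p56. After scaling, this was 23.4, 20.7 and 26.1 CPM in the ko clones and 3.62, 3.50 and 3.47 CPM in the wild-type libraries. All 3 ko clones lay far above all 3 wild-type libraries, and the wild-type libraries were almost equal to each other. The means were 23.4 ± 2.69 and 3.53 ± 0.078 CPM (SD, n = 3 each), a 6.63-fold difference and a log2 fold change of 2.72 (SE 0.14). Among the 105 genes that were called higher in ko cells (edgeR adjusted p under 0.01), Lama3 ranked 11 by its log2 fold change. It was called under all 13 alternative settings, with log2 fold changes from 2.64 to 2.81.

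Lama1 codes for the α1 chain of the first embryonic basement membranes and had a far higher level per exon length. Its level was 285, 259 and 253 CPM in the ko clones and 271, 269 and 244 CPM in p42, p43 and p56. The groups overlapped. The means were 266 ± 17.0 and 261 ± 15.3 CPM, with a log2 fold change of 0.02 (SE 0.07).

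Lama5 codes for the α5 chain, which is widespread in later basement membranes. It was at 201, 182 and 183 CPM in the ko clones and at 229, 236 and 191 CPM in p42, p43 and p56. The ko clones lay below p42 and p43, and the overlap between the groups came from p56 alone. The log2 fold change was -0.21 (SE 0.08), which was not called. Without p56 it was -0.30 (SE 0.06), and Lama5 was then called lower, which none of the other 12 alternatives did.

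Lama2 and Lama4, the α chains of muscle and nerve sheaths and of blood vessels, were too low to be tested. Lama2 had 0, 2 and 0 counts in the ko clones and 1, 1 and 0 counts in p42, p43 and p56. Both groups are below the floor of 3 counts over a group, so no fold is given. Lama4 had 7, 5 and 7 counts in the ko clones against 6, 8 and 4 counts in the wild-type libraries. Per library size this was a ratio of 1.31 of ko over wild type, and its 95% interval of 0.649 to 2.64 covers counting error only. A difference of Lama4 was not detectable at this depth.

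**Figure D1:**
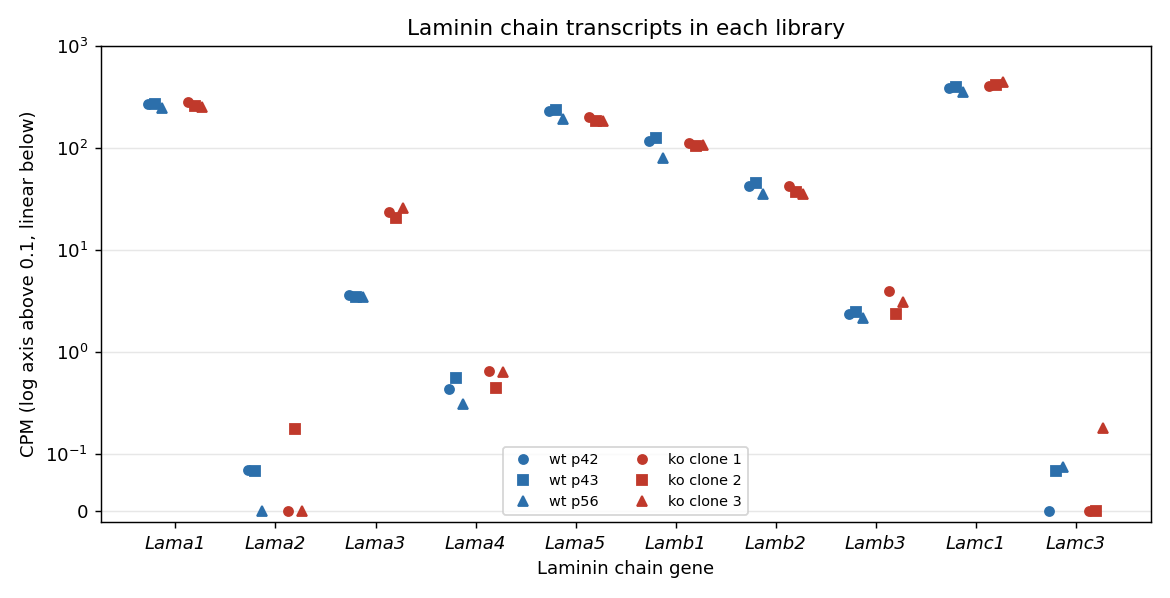
Level of each laminin chain gene in every library, in CPM on an axis that is logarithmic above 0.1 and linear below. Blue symbols are the 3 wild-type libraries and red symbols the 3 ko clones. The Lama3 levels of 20.7 to 26.1 CPM in ko clones stand apart from 3.47 to 3.62 CPM in wild-type libraries. The groups lie closer together in the other chains, with Lamc1 at 404 to 447 CPM in ko clones and 357 to 397 CPM in wild-type libraries.

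Of the β chains, Lamb1 codes for the β1 chain that accompanies α1 and α5 in early embryos. It was at 112, 104 and 108 CPM in the ko clones and at 116, 124 and 80.6 CPM in p42, p43 and p56. The ko clones fell between p56 and the other wild-type libraries. The means of 108 ± 4.26 and 107 ± 23.2 CPM gave a log2 fold change of 0.01 (SE 0.13). Relative to p42 and p43, p56 was lower by a log2 value of -0.57, and 93.0% of all tested genes differed less than that between these libraries. Without p56 the log2 fold change of Lamb1 was -0.16, and it was not called.

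Lamb2, the β2 chain of the kidney filter and of neuromuscular junctions, was at 42.3, 37.0 and 35.6 CPM in the ko clones. In p42, p43 and p56 it was at 41.96, 45.4 and 35.3 CPM. Here too the lowest wild-type level was that of p56, and the groups overlapped throughout. The log2 fold change was -0.09 (SE 0.11), and -0.19 without p56, and it was called in neither fit.

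Lamb3 codes for the β3 chain, a partner of α3. It had 43, 27 and 34 counts in the ko clones and 33, 35 and 28 counts in p42, p43 and p56, or 3.97, 2.38 and 3.08 CPM against 2.39, 2.45 and 2.16 CPM. Clones 1 and 3 were above all wild-type libraries and clone 2 was within their range. The log2 fold change was 0.42 (SE 0.24) and was not called. Summed over the groups, 104 counts against 96 gave a ratio per library size of 1.34 with a 95% interval of 1.01 to 1.79 from counting error alone, which leaves out the spread between clones. The log2 fold change ran from 0.23 to 0.59 over the alternatives and was called in none of them.

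Lamc1 codes for the γ1 chain, which nearly all laminins outside stratified epithelia contain, and had the highest level of the chains, also per exon length. It was at 404, 412 and 447 CPM in the ko clones and at 386, 397 and 357 CPM in p42, p43 and p56. The lowest ko clone lay just above the highest wild-type library. The means of 421 ± 23.3 and 380 ± 20.8 CPM gave a log2 fold change of 0.15 (SE 0.06), which was not called in this fit or in any alternative. Lamc3, which is not among the members, had 0, 0 and 2 counts against 0, 1 and 1 and was not tested.

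Of the 9 members, 7 passed the filter on low counts, and 1 of these was called higher and 0 lower in ko cells. Over all 12222 tested genes, 1.28% were called, 0.859% higher and 0.417% lower. Because the members were chosen with this comparison known, nothing is read from their count. The groups did not overlap for 2 tested members, Lama3 and Lamc1, beside 19.9% of all tested genes. Both were higher in ko cells, as were 9.68% of all tested genes, and 0 members but 10.2% of all tested genes were lower without overlap. The 6 tested members other than Lama3 had log2 fold changes from -0.21 to 0.42. Without p56, 2 members were called, Lama3 and Lama5, against 3.13% of all tested genes.

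**Figure D2:**
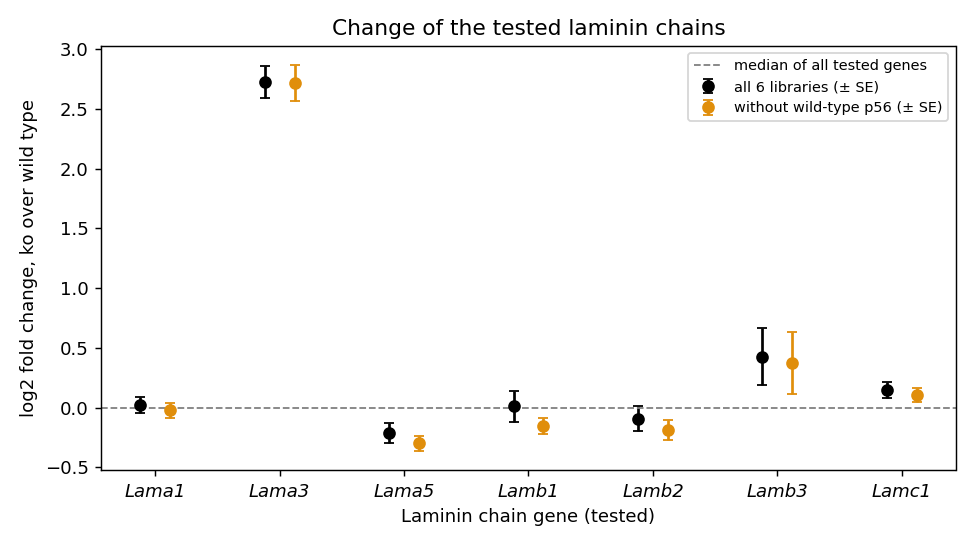
Log2 fold change of ko over wild type (± SE) for each tested laminin chain gene, with all 6 libraries in black and without wild-type p56 in orange. The dashed line is the median of all tested genes. Lama3 is at 2.72 and the other chains are between -0.21 and 0.42 with all 6 libraries. Leaving out p56 moves every chain downward, Lamb1 the most.

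The chains are spread over the genome (GENCODE vM21, build GRCm38, the assembly that mm10 names). Lama1 spans bases 67697259 to 67822647 of chromosome 17 on the plus strand, and Lama5 spans 180176373 to 180225859 of chromosome 2 on the minus strand. Lama2 (26980036 to 27619758, minus strand) and Lama4 (38965515 to 39110188, plus strand) are both on chromosome 10. Of the β chains, Lamb1 is at 31265234 to 31329644 of chromosome 12, Lamb2 at 108479736 to 108490530 of chromosome 9 and Lamb3 at 193207699 to 193343878 of chromosome 1, each on the plus strand. Lamc1 is at 153218922 to 153332786 of chromosome 1 on the minus strand.

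The counts of the members came almost wholly from the sense strand. Lama3 had 1 opposite-strand count beside 921 sense counts, and the opposite-strand share was at most 0.534% in the members with more than 37 sense counts. Reads of the chains can also be told apart by sequence. Of all stretches of 50 bases in their annotated transcripts, none occurred in a transcript of another laminin chain. In Lama3, 1.39% of the stretches also occurred in Gm29200, an annotated gene without a row in the files that overlaps Lama3 on the opposite strand by 197 exonic bases.

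To compare chains with each other, levels were expressed as RPKM (CPM divided by the exon length in kb). In the wild-type libraries the order was Lamc1 at 45.9 ± 2.51, Lama1 at 27.01 ± 1.58, Lama5 at 19.2 ± 2.15, Lamb1 at 10.8 ± 2.34 and Lamb2 at 6.72 ± 0.848 RPKM (SD, n = 3). Each of these was above the next in every library. Lamb3 at 0.353 ± 0.023 and Lama3 at 0.328 ± 0.007 RPKM followed much lower down, and their ranges overlapped at these lengths. Lama4 at 0.036 ± 0.010 RPKM came next, and Lamc3 and Lama2 were at or under the floor.

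In the ko clones this order was the same but for one place. Lama3 was at 2.17, 1.93 and 2.43 RPKM and so stood above Lamb3 at 0.476 ± 0.120 and below Lamb2 at 6.30 ± 0.575 RPKM in every ko clone. It remained below Lama1 and Lama5 in every ko clone, since the Lama1 level was 12.7 ± 1.71 times that of Lama3 there, against 82.2 ± 3.82 times in wild-type libraries. Some places depend on the length used. With the length of the longest transcript, Lamb1 at 18.5 ± 4.01 RPKM overlapped Lama5 in wild-type libraries, and Lamb1 came above Lama5 in the ko clones. Lamb3 at 0.479 ± 0.031 RPKM was then above Lama3 at 0.335 ± 0.007 RPKM in every wild-type library.

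Lama3 made up 4.40%, 4.31% and 5.44% of the summed α chain RPKM in the ko clones and 0.694%, 0.665% and 0.764% in p42, p43 and p56. Lama1 gave 59.3% ± 0.720 of this sum in ko clones and 58.1% ± 1.40 in wild-type libraries, with overlapping groups. The Lama5 share was 35.8%, 35.8% and 35.9% in the ko clones and 41.4%, 42.4% and 39.6% in p42, p43 and p56, so that every ko clone was lower. The summed α chain level was 46.3 ± 2.67 RPKM in ko clones and 46.6 ± 3.71 RPKM in wild-type libraries. The summed β chain level was 17.6 ± 1.06 against 17.9 ± 3.20 RPKM. Thus the sums of α and of β chain transcripts differed by less than the spread between libraries. The α chain shares differed in Lama3, whose difference was known when the members were chosen, and in Lama5. Shares of a sum are not independent, so a larger Lama3 share lowers the summed share of the rest by construction.

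The α3 chain can be built into a trimer with the β3 chain, so their transcripts were compared with each other. Pairings of α3 with other β chains were not compared. In wild-type libraries the ratio of Lama3 to Lamb3 RPKM was 0.932, 0.879 and 0.989. In the ko clones it was 3.62, 5.36 and 5.21, so that Lama3 was above Lamb3 in each of them. With the longest transcripts the ratio was 0.699, 0.659 and 0.742 in p42, p43 and p56 and 2.71, 4.02 and 3.91 in the ko clones. With the short Lama3 transcript described next it was 1.80, 1.70 and 1.91 against 7.01, 10.4 and 10.1. Which of both transcripts was higher in wild-type libraries thus depends on the length, while the ratio was higher in ko clones at each of these lengths. Transcript levels do not show whether a trimer was made.

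**Figure D3:**
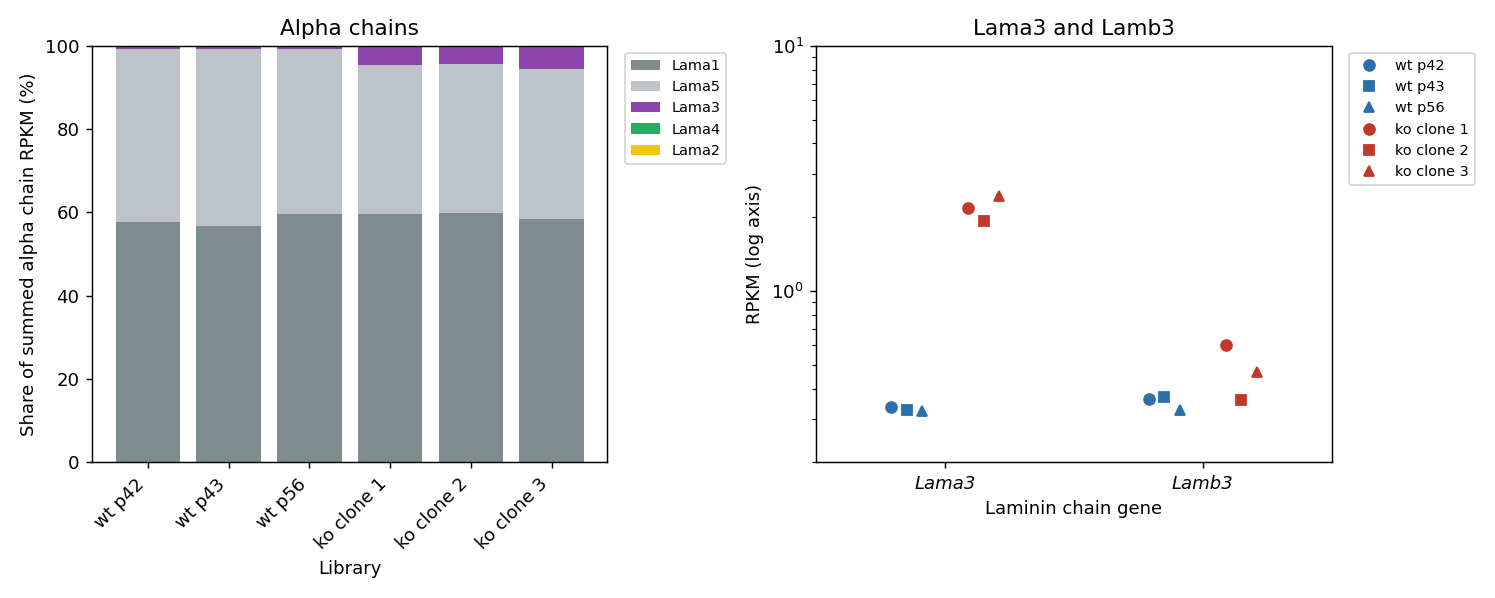
Left, share of each α chain gene in the summed α chain RPKM of each library, in percent. Right, RPKM of Lama3 and Lamb3 in each library on a log axis, with wild type in blue and ko in red. The Lama3 share is 4.31% to 5.44% in ko clones and 0.665% to 0.764% in wild-type libraries, and in ko clones Lama3 lies above Lamb3.

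Lama3 is annotated on chromosome 18 at bases 12333819 to 12583013 of the plus strand. It has 2 annotated transcripts. The long one, Lama3-201, has 75 exons and 10548 exonic bases, and the short one, Lama3-202, starts 170.38 kb further downstream within the gene and has 38 exons and 5551 exonic bases. Both end at the same base. Counts per gene do not separate the transcripts. If all reads came from the short one, the Lama3 level would be 4.22 ± 0.485 RPKM in ko clones and 0.636 ± 0.014 RPKM in wild-type libraries, with the ratio between the groups as before.

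Within 500 kb of the Lama3 gene there were 14 gene rows, of which 8 were tested and 0 were called by edgeR. Of the 8, 2 were at an unadjusted p under 0.05, beside 1746 of all 12222 tested genes. DESeq2 and limma-voom also called 0. The median log2 fold change of the tested neighbours was 0.14. The tested gene nearest upstream, 96.911 kb away, was Npc1, a cholesterol transporter of late endosomes. It was at 34.8, 36.0 and 36.7 CPM in the ko clones and at 34.0, 33.9 and 33.4 CPM in p42, p43 and p56 (log2 fold change 0.09, SE 0.08, edgeR adjusted p = 0.698).

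Further upstream, 3110002H16Rik, now named Rmc1, had the smallest adjusted p of these neighbours. It was at 53.4, 51.6 and 47.5 CPM in the ko clones and at 37.0, 38.5 and 41.4 CPM in the wild-type libraries. As for Npc1 and 9.68% of all tested genes, its ko clones all lay above the wild-type libraries. Its log2 fold change was 0.38 (SE 0.08, edgeR adjusted p = 0.026). Leaving out p56 was the 1 alternative in which this gene was called (log2 fold change 0.43, edgeR adjusted p = 0.0013). Riok3 had a log2 fold change of 0.20, Tmem241 of 0.21 and Cables1 of -0.14, and these were not called.

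Ttc39c begins 0.09 kb downstream of Lama3. It was low, at 2.12, 1.85 and 3.08 CPM in the ko clones and 1.59, 1.89 and 2.08 CPM in p42, p43 and p56 (log2 fold change 0.34, SE 0.27, edgeR adjusted p = 0.643). Osbpl1a, an oxysterol-binding protein, had a log2 fold change of -0.04, and Impact, a regulator of translation, of 0.03. Ankrd29, which lies between Npc1 and Lama3, had 9 counts in the ko clones against 14 in the wild-type libraries and was not tested. Lama3 was the gene of this stretch that was called with all 6 libraries.

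**Figure D4:**
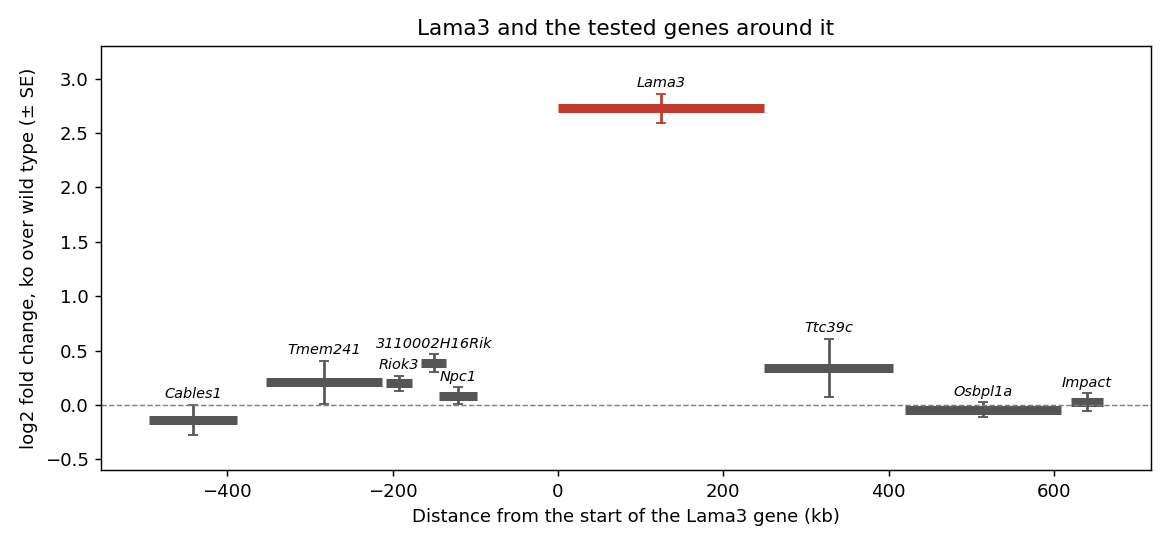
Log2 fold change of ko over wild type (± SE) of Lama3 and of the 8 tested genes within 500 kb, drawn as bars over the span of each gene along the distance from the start of Lama3 in kb. Lama3 is at 2.72 and its neighbours are between -0.14 and 0.38.

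The genes whose log2 CPM followed that of Lama3 most closely over the 6 libraries, by Pearson correlation, were Eif2s2, Tlr2, Mllt10, Tgfbrap1 and Slc9a3r1, with coefficients of 0.996 to 0.998. Every one of them was higher in the ko clones, so that these coefficients rest mainly on the gap between the 2 groups. Eif2s2 (a subunit of a translation initiation factor) had 865 ± 31.9 against 498 ± 13.4 CPM, and Tlr2 (a receptor for bacterial lipoproteins) 16.2 ± 0.579 against 3.27 ± 0.124 CPM. Among the laminin chains, the coefficient with Lama3 was 0.78 for Lamc1, 0.70 for Lamb3, 0.16 for Lama1, 0.10 for Lamb1, -0.32 for Lamb2 and -0.69 for Lama5. For Lama1, which did not differ in this way, the closest genes were Atf3, 9330133O14Rik and Cln8, with coefficients of 0.990 to 0.998.

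The partners of laminin in the basement membrane were taken as 26 genes, and 13 were tested. Of these, 2 were called lower and 0 higher, beside 0.417% and 0.859% of all tested genes. This list and those below were chosen with earlier results of these data known, so nothing is read from their counts. Both called genes code for chains of type IV collagen, the second network of basement membranes. Col4a1 was at 22.0 ± 0.562 CPM in ko clones and 41.1 ± 0.970 CPM in wild-type libraries (log2 fold change -0.90, SE 0.08, edgeR adjusted p = 6.0e-05). Col4a2, which shares a promoter region with Col4a1, was at 5.15 ± 0.118 and 11.8 ± 0.162 CPM (log2 fold change -1.19, SE 0.13, edgeR adjusted p = 2.7e-04). Both were called under all 13 alternatives. The median of the tested partners was -0.16, beside -0.0001 over all tested genes. Of the 13, 10 had a value below 0, beside 6114 of all 12222 tested genes. Without p56, Ntn1, which codes for the laminin-related netrin 1, was called as well (log2 fold change -0.33, edgeR adjusted p = 0.0021).

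Of 17 laminin receptor genes, 16 were tested and 0 were called by edgeR, DESeq2 and limma-voom. In edgeR, 6 of the 16 were at an unadjusted p under 0.05, beside 1746 of all 12222 tested genes. The median log2 fold change of the receptors was -0.18. Of the 16, 14 had a value below 0, beside 6114 of all 12222 tested genes. Itgb1, the β1 subunit common to most laminin-binding integrins, was at 310 ± 15.2 CPM in ko clones and 308 ± 8.27 CPM in wild-type libraries (log2 fold change 0.01, SE 0.06, edgeR adjusted p = 0.979). Itga6, its α6 partner, was at 202 ± 3.98 against 236 ± 19.4 CPM. Every ko clone was below every wild-type library, as for 10.2% of all tested genes. The log2 fold change of -0.22 (SE 0.07) was not called (edgeR adjusted p = 0.142).

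The hemidesmosome is the junction that binds the α3-containing laminin, and 6 of 8 of its genes were tested. edgeR, DESeq2 and limma-voom called 0 of them, with 2 at an unadjusted p under 0.05 in edgeR, beside 1746 of all 12222 tested genes. Their median log2 fold change was -0.17. The highest CPM were those of the linker proteins, with Dst at 434 against 444 CPM and Plec at 313 against 330 CPM in ko and wild-type libraries. The 12 genes that glycosylate dystroglycan for laminin binding were all tested, and again 0 were called by the 3 tools, with 1 at an unadjusted p under 0.05 in edgeR. Their median was -0.12, and those with the highest CPM, B3galnt2 and Pomk, had log2 fold changes of -0.08 and -0.11.

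Of 10 genes for proteases that can process laminin chains, 8 were tested and 0 were called by edgeR, DESeq2 and limma-voom. In edgeR, 2 of the 8 were at an unadjusted p under 0.05, beside 1746 of all 12222 tested genes. The median log2 fold change of the 8 was -0.29. Htra1, a secreted serine protease with the highest CPM among them, was at 27.4 ± 4.50 against 23.2 ± 8.06 CPM (log2 fold change 0.24, SE 0.20) and was called higher without p56 alone (0.56, edgeR adjusted p = 0.0047). Mmp14, a membrane-bound metalloprotease, was at 16.6 ± 2.64 against 24.9 ± 4.16 CPM. It missed the threshold (log2 fold change -0.59, SE 0.14, edgeR adjusted p = 0.054). It was called lower when no filter on low counts was applied (edgeR adjusted p = 0.0094).

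**Figure D5:**
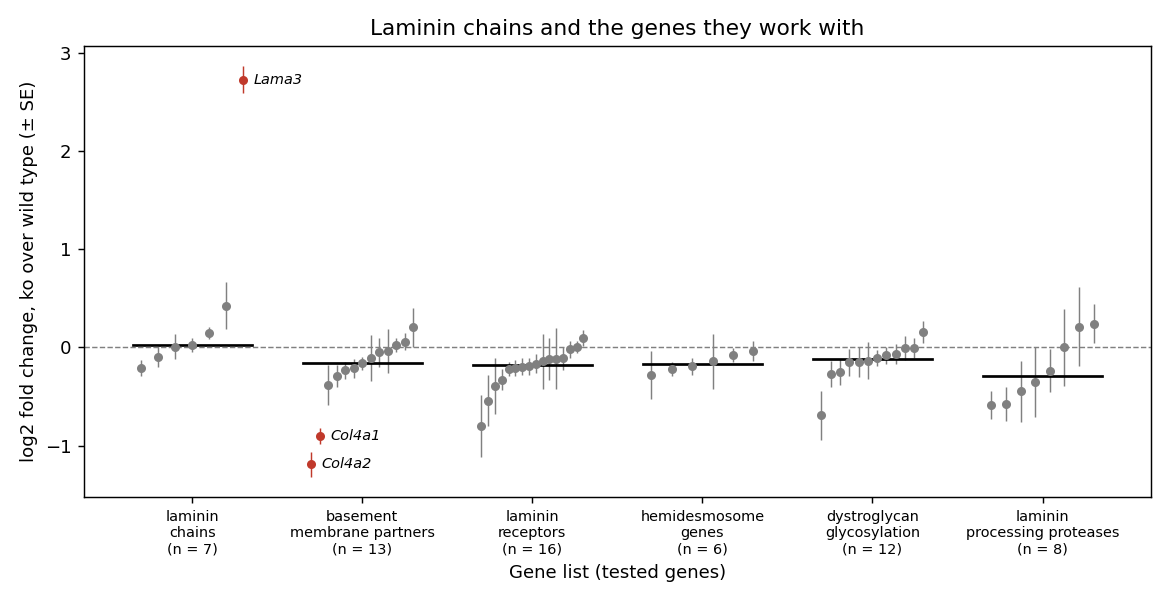
Log2 fold change of ko over wild type (± SE) of each tested gene of the laminin chains and of 5 lists of genes that laminins work with. Each point is a gene, black lines are list medians and called genes are red. Lama3 at 2.72 stands above all others, and Col4a1 at -0.90 and Col4a2 at -1.19 are the called genes of the other lists.

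Laminin chains also mark other cell types that ES cell cultures can hold, and the levels of such markers are set beside them here. In bulk RNA, a change in the number of cells of a type and a change of RNA per cell cannot be told apart. Of 10 keratinocyte and epithelial markers, 5 were tested, with a median log2 fold change of 0.56. Among the tested markers, 2 were called higher and 0 lower, beside 0.859% and 0.417% of all tested genes. The summed level was 562 to 574 CPM in ko clones and 460 to 470 CPM in wild-type libraries. The highest of them was Cdh1, which codes for E-cadherin and was at 296 ± 14.4 against 274 ± 28.7 CPM (log2 fold change 0.11, SE 0.08). Epcam, an adhesion molecule that ES cells express, was at 203 ± 7.35 against 119 ± 3.44 CPM (log2 fold change 0.77, SE 0.06, edgeR adjusted p = 2.1e-05). Grhl2, an epithelial transcription factor, was at 38.9 ± 1.87 against 26.3 ± 1.05 CPM (0.56, SE 0.08, edgeR adjusted p = 0.0028), and it was called under 9 of 13 alternatives. The other 2 tested markers were not called. Krt17, a keratin, was at 28.2 ± 5.11 against 42.998 ± 22.4 CPM (-0.60, SE 0.28, edgeR adjusted p = 0.353), and its 892 counts in p56 were far above the 395 and 452 in p42 and p43. Ovol1, an epithelial transcription factor, was at 1.32 ± 0.188 against 0.480 ± 0.217 CPM (1.43, SE 0.40, edgeR adjusted p = 0.092). Of the remaining markers, the basal keratinocyte genes were at or near 0, with 0 Trp63 counts in every library, 2 Krt5 counts in the ko clones against 1 in the wild-type libraries, and 3 Krt14 counts against 2.

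The 14 markers of primitive and parietal endoderm, whose cells secrete much α1, β1 and type IV collagen, summed to 35.6 to 46.1 CPM in ko clones and 21.3 to 57.6 CPM in wild-type libraries. Only 3 were tested and 0 were called by edgeR, DESeq2 and limma-voom, with 0 at an unadjusted p under 0.05 in edgeR. Their log2 fold changes were all below 0, with a median of -0.77, and -1.004 without p56. Gata4, an endoderm transcription factor, was at 0.635 ± 0.252 against 1.11 ± 0.297 CPM (-0.81, SE 0.40, edgeR adjusted p = 0.395). Over all 14 markers, the mean was lower in ko clones for 9 and higher for 5, mostly at a few counts. Most of the sum was Lrp2, at 37.3 ± 5.13 against 39.4 ± 19.3 CPM, and without Lrp2 the sum was 3.97, 3.62 and 3.81 CPM in the ko clones and 6.22, 7.20 and 4.17 CPM in p42, p43 and p56. Without Lrp2 every ko clone was thus below every wild-type library, but narrowly, with 3.97 CPM in ko clone 1 against 4.17 CPM in p56. As single genes, 10.2% of all tested genes were lower without overlap, a share that does not refer to sums. The fibroblast markers without their highest, Thy1, also summed lower in every ko clone (3.17 to 3.26 against 3.62 to 4.06 CPM). Most of that sum was Pdgfrb, at 2.24 against 3.01 CPM. Over all 10 fibroblast markers, the mean was higher in ko clones for 3, lower for 4 and equal for 3. The epithelial markers without Cdh1 summed higher (267 to 283 against 171 to 220 CPM), and most of that sum was Epcam, at 203 against 119 CPM. Over all 10 epithelial markers, the mean was higher in ko clones for 8, lower for 1 and equal for 1, some of them at a few counts. The sum is therefore not a measure of the list as a whole. The trophoblast and pluripotency sums without their highest marker overlapped. The p56 library had the lowest wild-type endoderm sum with and without Lrp2. It also had the lowest Lamb1 level, while its Col4a1 and Col4a2 levels were 40.7 and 11.8 CPM. Lrp2 was called lower in ko cells without p56. The part of such cells in the levels of Lamb1, Col4a1 and Col4a2 was not tested. The 10 trophoblast markers summed to 67.6 to 85.3 CPM in ko clones and 79.6 to 92.7 CPM in wild-type libraries, with 5 tested, 0 called by edgeR, DESeq2 and limma-voom and 0 at an unadjusted p under 0.05 in edgeR. Their median log2 fold change was -0.27, and the marker with the highest CPM, Tfap2c, was called lower without p56. The 10 fibroblast markers summed to 7.85 to 8.31 CPM and 11.8 to 12.9 CPM, and Dcn, Postn and Twist2 had no counts. Of the 2 that were tested, Thy1 was called lower, with 4.79 ± 0.254 against 8.70 ± 0.474 CPM (log2 fold change -0.86, SE 0.14, edgeR adjusted p = 0.0064), under 8 of 13 alternatives.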

How the data were processed

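Total RNA was treated with DNase and depleted of ribosomal RNA. The authors prepared strand-specific libraries, aligned paired-end reads to mm10 with STAR and deposited raw counts per gene for each library, without normalization or pooling. The annotation they counted with is not given in the sources used here. The column with the sense strand was used, unassigned reads (unmapped 6.87% to 7.82%, multimapping 16.3% to 17.4%, outside genes 11.2% to 13.1%, ambiguous 0.469% to 0.495% of the total) were left out, and only reads mapping to 1 place are counted.

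From these counts, all genes were tested with edgeR's quasi-likelihood test (edgeR 4.0.16, R 4.3.3) with TMM normalization, the default filterByExpr filter (minimum count 10, minimum total 15) and the group as the only term. Tests were two-sided, p-values were adjusted by Benjamini-Hochberg over all tested genes, and genes with an adjusted p under 0.01, the threshold of the study, were called. Fold changes use a prior count of 0.125. Alternatives were DESeq2 1.42.0, limma-voom (limma 3.58.1), RLE factors, other filters, counts that ignore strand, a robust fit and leaving out each library. The scripts were tested on simulated data. CPM used TMM-scaled library sizes, and RPKM also the union of annotated exons (GENCODE vM21, in which 22708 of 24054 symbols were found). Gene positions around Lama3 came from RefSeq for GRCm38. Correlations used log2 of CPM + 0.5. Ratios of low counts have 95% intervals for counting error only, and over a group of 3 libraries, 3 counts were taken as the floor.

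The members, gene lists and marker lists were chosen with earlier results of these data known. Named were Morc3, the members, Lamc3, the called genes of each list (the 2 with the highest CPM where fewer than 2 were called), the tested genes within 500 kb of Lama3, the genes most correlated with Lama3 and Lama1, and the highest and called markers. Ankrd29, Ntn1, Gata4, Krt17, Ovol1, Mmp14 and the keratinocyte and fibroblast markers at or near 0 were named after their values were seen. The marker sums without the highest gene and the ratio with the short transcript were also taken after their values were seen. 1 further laminin chain gene is not reported here.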

Additional observations from a re-analysis of the deposited data

How the results depend on the processing

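Over all genes, 156 were called, and 254 with DESeq2, 286 with no filter on low counts, and 72 to 385 when each library was left out (96, 73 and 72 without ko clones 1, 2 and 3, and 385 without wild-type p56). Of the laminin chains, 1 was called and 1 to 2 on leaving out 1 library, Lama5 being added without p56. Of the proteases, 0 were called, 1 with no filter (Mmp14) and 0 to 1 on leaving out 1 library, Htra1 being added without p56. Of the genes within 500 kb of Lama3, 0 were called and 0 to 1 on leaving out 1 library, 3110002H16Rik being added without p56. In each case the cause was not tested. The counts of called basement membrane partners were 2 to 3 over 13 alternatives, and those of receptors, hemidesmosome genes and glycosylation genes were 0 in each. Of the members, list genes and markers, none that was called with all 6 libraries changed sign in an alternative. Lrp2, called without p56 alone, ran from -0.44 to 0.14 on the log2 scale. Lama3 was called in 13 of 13 alternatives. The length of the short Lama3 transcript, a setting chosen after seeing the data, raised its share of the α chain level to 8.74% in ko clones and 1.36% in wild-type libraries, by its construction. No paired analysis was possible because GEO's labels number the ko clones and the wild-type cultures separately, with no number in common. Depth limits the low chains: Lamb3, with 27 to 43 counts a library, had an SE of 0.24 on the log2 scale, and Lama2, Lama4 and Lamc3 were too low for a test.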
